A study of Mus musculus with 36 samples.

Results

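The effect of human GKRP-446P on hepatocytes that overexpress GK was examined in 9 cultures of the 36 in the series. GK is glucokinase, and GKRP is the glucokinase regulatory protein, encoded by Gckr in the mouse and GCKR in man. The cultures were chosen by their labels: 3 received the vectors for human GKRP-446P and GK (hP+GK), and 6 received the GK vector alone (GK). All came from 3 female adult mice. Each mouse gave 1 hP+GK culture and 2 GK cultures, and the reads of those 2 were added together. The comparison thus holds 1 pair of samples from each of the 3 mice. The p values use a spread estimated over 30 samples from all 36 cultures, not over these pairs alone.

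Glucokinase phosphorylates glucose in the hepatocyte and sets the rate at which glucose enters metabolism. GKRP binds glucokinase, inhibits it and holds it in the nucleus, and glucose and fructose 1-phosphate release it. Phosphorylated glucose metabolites activate the transcription factor ChREBP (gene Mlxipl), which drives genes of glycolysis, fructose metabolism and lipogenesis. The comparison therefore asks which transcripts differ when the inhibitor of glucokinase is supplied on top of excess glucokinase.

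The mice carried the Gckr-446L allele, as Gckr-446L in mouse 1 and mouse 2 and Gckr-446P/L in mouse 3. Thus the endogenous gene of every culture included the variant allele, and the genotype of mouse 3 cannot be told apart from that animal. Hepatocytes were exposed to adenoviral vectors after attachment and cultured with insulin and dexamethasone, each at 10 nM. In every group the culture lasted 24 h at 5 mM glucose. RNA was extracted after a further 4 h at 25 mM glucose. Untreated hepatocytes (2 cultures per mouse) and those with human GKRP-446P alone (hP, 1 per mouse) had only endogenous GK. Cultures with human GKRP-446L and GK (hL+GK) or mouse GKRP-446P and GK (mP+GK), 1 per mouse each, served for comparison. No group with an empty vector is used here, and hP+GK cultures received an additional adenovirus, so GKRP and viral load cannot be told apart.

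The 9 libraries held between 4271540 and 10046158 estimated reads. Levels are given as CPM, the estimated reads of a gene scaled to a common library size of 1000000 after TMM normalization. A gene was called raised or lowered at an adjusted p under 0.05 (edgeR's quasi-likelihood test, Benjamini-Hochberg over 12176 genes) and a fold of at least 1.3 or at most 0.7. Hepatocyte markers summed to between 79250 and 125900 CPM with GK and between 79590 and 116200 CPM with hP+GK. None of the 8 hepatocyte, 8 macrophage, 8 endothelial, 3 stellate and 2 cholangiocyte markers tested was called. The summed macrophage markers were 238.6 to 321.2 CPM with GK and 233.8 to 314.5 CPM with hP+GK, and the endothelial markers 90.4 to 148.7 and 96.8 to 138.1 CPM. The stellate markers summed to 13.4 to 41.9 CPM with GK and 15.7 to 42.2 CPM with hP+GK, and those of cholangiocytes to 21.9 to 187.5 and 17.0 to 152.8 CPM.

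The GKRP vector itself was not counted, because human GCKR is absent from the mouse transcripts. Mouse Gckr was 54.5, 69.5 and 845 CPM in the GK samples of mouse 1, mouse 2 and mouse 3, and 45.9, 67.2 and 70.8 CPM with hP+GK. The high value came from 1 culture of mouse 3 labelled GK, at 1462 CPM, whereas the other 5 GK cultures lay between 51.8 and 98.0 CPM. The same culture had 22.3 CPM of Mcm4, a replication gene, against 11.5 to 14.3 CPM in the other 5. Its Gckr level goes against its label of GK without GKRP, so the label is in doubt, and the cause was not tested. Without that culture the log2 fold change of Gckr was -0.26 in place of -2.06, and 172 genes were lowered and 256 raised, against 158 and 244 with it. The glucose-responsive and replication genes described below then had medians of -1.08 (16 lowered) and 1.04 (36 raised).

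With hP+GK, 158 genes were lowered (1.3% of those tested) and 244 raised (2.0%) relative to GK. The lowered genes included enzymes and transporters of glucose and fructose metabolism, and the raised genes included those of DNA replication. All 158 lowered genes and 241 of the 244 raised genes moved the same way in 3 of 3 mice. The genes were called on these same samples, so this agreement follows largely from the selection and is not independent support. The median log2 fold change was -0.777 among the lowered genes and 0.788 among the raised, and -0.0005 over all genes tested. When the model did not account for the mouse the counts were 30 lowered and 77 raised. A correction for the effective transcript length of each library left 7 and 9, although 145 of the 158 and 237 of the 244 kept their sign; the median effective length ranged from 932 to 1974 bases across the 9 libraries.

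The glucose-responsive list holds target genes of ChREBP. Its members were chosen with earlier results of these data known. Pklr, Tkfc and Klf10 in it were also named by the study from these same cultures, so its counts are not independent support. Of its 23 genes tested, 16 were lowered and 0 raised in hP+GK against GK, and 22 had a negative log2 fold change, with a median of -1.03. The per-mouse medians were -0.78, -1.03 and -1.45 in mouse 1, mouse 2 and mouse 3. The list shares its GK samples with the comparison of GK against untreated hepatocytes, where 16 of the 23 were raised (42 genes, 0.345%, were raised and 2, 0.0164%, lowered over all genes) and the median was 1.02. Relative to untreated hepatocytes the hP+GK cultures had a median of -0.14 for these genes.

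The genes lowered most were regulators of signalling and redox state. Rgs16 (chr1:153616091-153621228, GRCm39), a regulator of G protein signalling, was 26.1, 58.6 and 54.6 CPM with GK and 5.44, 7.11 and 3.01 CPM with hP+GK. The groups did not overlap, and hP+GK left 10.9% of the GK level (log2 fold change -3.19, SE 0.39, adjusted p = 1.5e-05). Txnip (chr3:96465267-96469201), which encodes the thioredoxin-interacting protein that restrains glucose uptake, was 98.0, 274 and 344 CPM with GK and 13.9, 42.2 and 46.2 CPM with hP+GK. Every hP+GK sample lay below every GK sample (log2 fold change -2.79, SE 0.30, adjusted p = 3.2e-06). Its relative Arrdc4, an arrestin-domain protein, was 10.7, 15.5 and 25.2 CPM with GK and 4.08, 5.66 and 4.06 CPM with hP+GK (log2 fold change -1.85, SE 0.33). With the transcript length correction Txnip (-2.66, edgeR adjusted p = 0.154) and Arrdc4 (-1.58, 0.447) were not called, and Rgs16 was (-3.41, 0.00225).

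**Figure D1:**
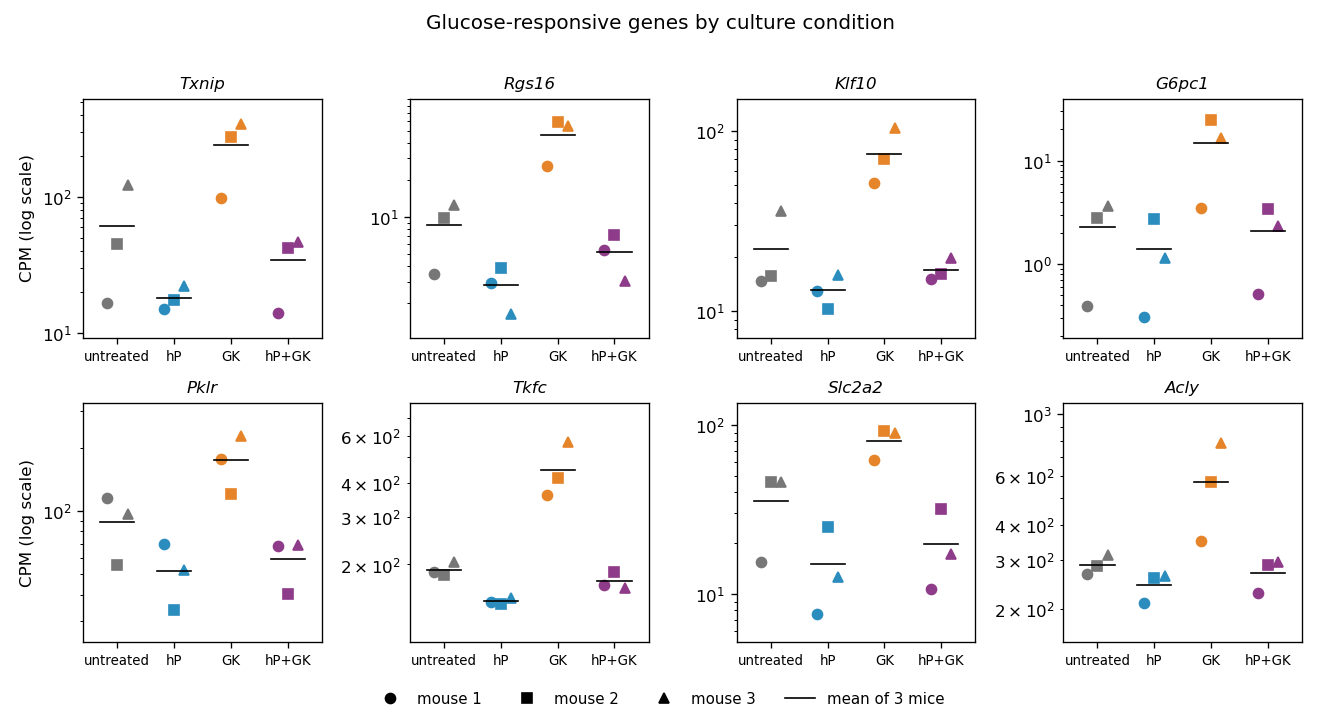
CPM (log scale) of 8 glucose-responsive genes in untreated, hP, GK and hP+GK hepatocytes, with 1 symbol per mouse and a line at the mean of 3 mice. In each gene the 3 GK samples have a higher mean than the 3 hP+GK samples, such as 239 against 34.1 CPM for Txnip.

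Transcription factors were among the lowered genes. Klf10, a zinc-finger factor induced by glucose, was 51.5, 70.1 and 104 CPM with GK and 15.1, 16.2 and 19.8 CPM with hP+GK. The hP+GK samples were close to each other and below all GK samples (log2 fold change -2.11, SE 0.23, adjusted p = 3.2e-06). Lhx6, a LIM homeobox factor, fell by 1.91 on the log2 scale. Bhlhe40, a repressor that feeds into the circadian clock, was 266, 324 and 322 CPM with GK and 150, 212 and 130 CPM with hP+GK, and was the 1 gene called of 9 in the clock list. With the transcript length correction Klf10, Lhx6 and Bhlhe40 were not called (edgeR adjusted p = 0.82, 0.0635 and 0.536). The log2 fold change of Klf10 was then -1.04. Mlxipl itself was 87.7, 87.6 and 104 CPM with GK and 105, 59.1 and 58.8 CPM with hP+GK. It was lower in mouse 2 and mouse 3 and higher in mouse 1, and was not called (adjusted p = 0.18).

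Genes that act on glucose and its phosphate were lowered together. Slc2a2, the hepatic glucose transporter, was 61.8, 91.6 and 89.2 CPM with GK and 10.7, 31.7 and 17.1 CPM with hP+GK (log2 fold change -2.19, SE 0.27, adjusted p = 2.3e-05). G6pc1, the catalytic subunit of glucose 6-phosphatase, was 3.45, 24.5 and 16.6 CPM with GK and 0.51, 3.39 and 2.36 CPM with hP+GK. The groups were apart by little, since the GK level of mouse 1 was just above the hP+GK level of mouse 2, and each mouse had less with hP+GK (log2 fold change -2.75, SE 0.49, adjusted p = 0.0012). Slc37a4, which carries glucose 6-phosphate into the endoplasmic reticulum, fell by 1.08. G6pc1 and Slc37a4 were the 2 genes lowered of 7 in the gluconeogenesis list. Pck1 (log2 fold change 0.54, adjusted p = 0.47) and Fbp1 (-0.28, adjusted p = 0.17) were not called. When the edgeR model did not account for the mouse, Slc2a2, G6pc1 and Slc37a4 lost their calls (adjusted p = 0.239, 0.307 and 0.791). The call of G6pc1 was also lost without mouse 2 (0.0691) or mouse 3 (0.0556). With the transcript length correction G6pc1 (-2.89, adjusted p = 0.0635) and Slc37a4 (-0.60, adjusted p = 0.944) were not called.

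In glycolysis 3 of 13 enzymes were lowered, and the median was -0.36. With the transcript length correction the median was -0.010, with 7 below 0, 6 above and 1 called. Pklr, liver pyruvate kinase, was 178, 121 and 229 CPM with GK and 68.1, 40.2 and 68.6 CPM with hP+GK. It fell to 33.5% of the GK level without overlap of the groups (log2 fold change -1.58, SE 0.15, adjusted p = 4.8e-07). With the transcript length correction Pklr was not called (log2 fold change -1.24, edgeR adjusted p = 0.394). Gpi1, glucose 6-phosphate isomerase, fell by 0.52 and Pfkfb3, a producer of the phosphofructokinase activator fructose 2,6-bisphosphate that was not in the list, by 1.43. Hepatic Pfkl was not called (log2 fold change -0.30, adjusted p = 0.25).

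In fructose and polyol metabolism 4 of 6 genes were lowered, and 2 when the model did not account for the mouse. Tkfc, triokinase, was 363, 417 and 570 CPM with GK and 168, 188 and 164 CPM with hP+GK. The hP+GK samples stayed below each GK sample (log2 fold change -1.38, SE 0.14, adjusted p = 2.4e-06). Khk, ketohexokinase, had a log2 fold change of -0.59 (adjusted p = 0.022 by edgeR), and its call was lost when any 1 mouse was left out (adjusted p = 0.0815, 0.0721 and 0.39). With the transcript length correction its log2 fold change was -0.014.

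Of 14 lipogenic genes 4 were lowered, with a median of -0.46, and 0 without mouse 3 or with the transcript length correction, and 1 when the model did not account for the mouse. Acly, ATP citrate lyase, was 350, 572 and 791 CPM with GK and 227, 287 and 295 CPM with hP+GK (log2 fold change -1.03, SE 0.15, adjusted p = 0.00015), and its adjusted p was 0.115 without mouse 3 and 0.938 with the length correction (log2 fold change -0.50). Acaca, acetyl-CoA carboxylase, fell by 0.98 and the elongase Elovl6 by 0.80. Fasn, fatty acid synthase, was 412, 447 and 630 CPM with GK and 296, 298 and 363 CPM with hP+GK, lower in each mouse but not called (adjusted p = 0.15). Scd1, stearoyl-CoA desaturase, and Me1, malic enzyme, had adjusted p values of 0.005 and 0.00051 but log2 fold changes of -0.45 and -0.47, short of the fold threshold. Gpd1, which makes glycerol 3-phosphate, fell by 0.88.

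Among other metabolic lists, 2 of 11 glycogen genes were lowered. Pygl, liver glycogen phosphorylase, fell by 0.63 and Ppp1r3b, a subunit that targets phosphatase to glycogen, by 1.39. The call of Pygl was lost without mouse 3 (edgeR adjusted p = 0.0939) and with the transcript length correction (log2 fold change -0.14, adjusted p = 0.993). Angptl8, a secreted inhibitor of lipoprotein lipase, was 36.9, 44.2 and 51.8 CPM with GK and 5.10, 9.53 and 8.51 CPM with hP+GK, with no overlap, and was the 1 gene called of 9 in the VLDL list. Of 38 mitochondrial carriers 3 were lowered: Slc25a47 by 1.79, Slc25a44, which carries branched-chain amino acids, by 0.87, and Slc25a24, an ATP-Mg/phosphate carrier, by 0.75. With the transcript length correction Angptl8 and Slc25a44 were not called (edgeR adjusted p = 0.0696 and 0.161), and Slc25a47 was (0.0165). Fgf21, a fasting- and glucose-induced hormone, did not pass the filter on low counts, with 0.45, 0.51 and 1.04 CPM with GK and 0.34, 0 and 0.26 CPM with hP+GK.

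Several lists held no called gene: the pentose phosphate pathway (8 genes tested), fatty acid oxidation (17), interferon-stimulated genes (19), the acute phase response (14), hepatocyte transcription factors (13), bile acid genes (14), cytochromes P450 (7), major urinary proteins (18) and hexokinases with GKRP (6). Interferon-stimulated genes had a median of 0.16, with 17 of 19 above 0, and their part in the other results was not tested. Of 23 cholesterol genes only Insig1, which retains the SREBP complex in the endoplasmic reticulum, was called, being raised by a log2 fold change of 0.55. Of 13 immediate early genes 2 were lowered, Dusp1, a phosphatase of MAP kinases, by 0.69 and Ier3 by 0.61. Herpud1 was the 1 gene called, raised, of 15 in the unfolded protein response list, and Bbc3 the 1 raised of 15 p53 targets. Of the 17 genes that the study names for opposite responses to GK and GKRP, a list chosen on these samples and not independent evidence of direction, 14 were lowered.

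**Figure D2:**
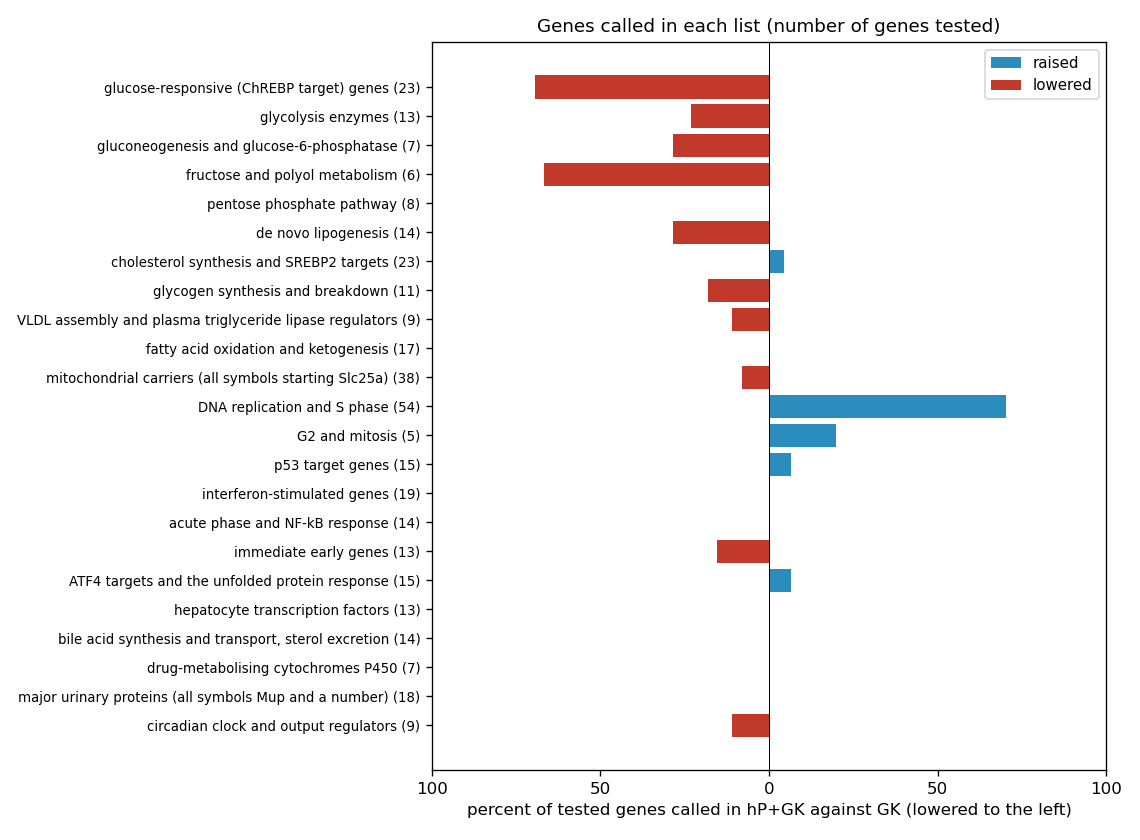
Percent of the tested genes called in hP+GK against GK in each gene list drawn (the markers, the hexokinases and the list that the study chose on these samples are left out), raised to the right and lowered to the left, with the number tested in brackets. Among the lists drawn, the bars reach furthest left for the glucose-responsive list (16 of 23) and furthest right for DNA replication (38 of 54).

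Genes of DNA replication were raised in hP+GK against GK, where GKRP and the additional adenovirus cannot be told apart. This list too was chosen with earlier results of these data known, so its counts are not independent support. Of 54 tested, 38 were raised and 0 lowered, and the median log2 fold change was 1.04. The summed level of the list was 639.7 to 806.2 CPM in GK samples and 1349 to 1571 CPM in hP+GK samples. GK against untreated hepatocytes gave a median of 0.07 for the list, with 1 gene raised. Mitotic genes were scarce: 5 of 18 passed the filter, and Cdk1, the mitotic kinase, was raised.

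The MCM helicase, which unwinds DNA at the fork, was among the genes with the smallest p. Mcm4 was 12.6, 12.1 and 18.3 CPM with GK and 65.8, 51.7 and 72.9 CPM with hP+GK. The lowest hP+GK sample exceeded the highest GK sample (log2 fold change 2.14, SE 0.12, adjusted p = 1.7e-10). Mcm5 was 9.80, 4.65 and 9.51 CPM with GK and 48.1, 27.6 and 42.8 CPM with hP+GK (log2 fold change 2.33, SE 0.17). Mcm3 rose by 1.58 and Mcm2 by 1.77 on the log2 scale. With the transcript length correction Mcm4 and Mcm5 stayed called (edgeR adjusted p = 0.0343 and 0.00135), and Mcm3 and Mcm2 did not (0.0635 and 0.186).

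Cyclins and checkpoint genes of the G1 to S transition behaved alike in direction. Ccne1, cyclin E1, was 2.904, 2.62 and 4.32 CPM with GK and 20.6, 6.95 and 18.9 CPM with hP+GK, and Ccne2 rose by 2.22. Chek1, the checkpoint kinase, was 0.91, 1.96 and 1.76 CPM with GK and 7.31, 8.56 and 11.1 CPM with hP+GK (log2 fold change 2.49, SE 0.31, adjusted p = 2.4e-05). The transcription factors E2f1 and E2f8 rose by 1.73 and 2.20. Uhrf1, which brings the maintenance methyltransferase to replicated DNA, was 4.45, 1.09 and 3.28 CPM with GK and 22.4, 12.6 and 25.8 CPM with hP+GK. Chaf1b, a histone chaperone subunit, rose by 2.01, Pcna, the sliding clamp, by 0.87, and Rrm1, the large ribonucleotide reductase subunit, by 1.05. Rrm2, the small subunit, was 39.1, 159 and 106 CPM with GK and 22.4, 148 and 70.2 CPM with hP+GK, was lower in each mouse and was not called (adjusted p = 0.20). Other genes raised most were Slfn9 (2.53), Dppa3 (2.76), Gm5828 (2.62) and Rtp3 (1.92), the last of which was 0.64 to 2.09 CPM with GK. With the transcript length correction Ccne1, Chaf1b, Slfn9 and Gm5828 stayed called. Ccne2, Chek1, E2f8, Uhrf1 and Dppa3 did not (edgeR adjusted p = 0.143, 0.262, 0.563, 0.203 and 0.0635).

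**Figure D3:**
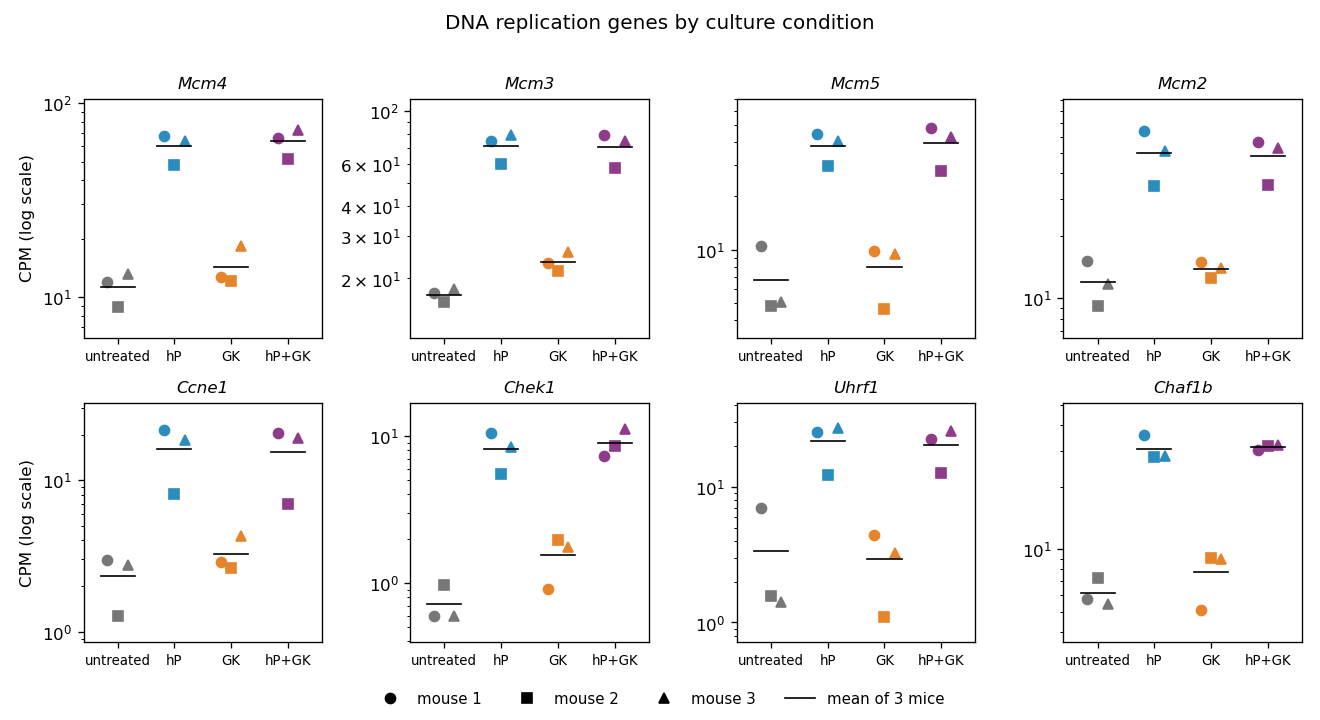
CPM (log scale) of 8 replication genes in the same 4 conditions, with 1 symbol per mouse and a line at the mean of 3 mice. The hP and hP+GK samples lie above the untreated and GK samples, such as 51.7 to 72.9 CPM with hP+GK against 12.1 to 18.3 CPM with GK for Mcm4.

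Promoter windows are shown because E2F factors drive S-phase genes and ChREBP binds E-boxes. Those printed belong to the named genes of smallest p whose window holds the word searched. The presence of a word in each was therefore fixed by that choice. The windows come from RefSeq (GRCm38.p6) and were matched by symbol, for 8965 of the 12165 symbols tested; they span 250 bases before to 50 after the gene's start, of which 250 before and 30 after are printed, and each printed run occurs once in its GRCm39 chromosome at the position given. Capitals mark the E2F words TTTCCCGC, TTTGGCGC, TTTGCCGC or TTTCGCGC, on either strand, in raised genes, and the E-box CACGTG in lowered genes, which is its own reverse complement. In Mcm5 the 2 words overlap.
Mcm3, chr1:20890507-20890786, minus strand: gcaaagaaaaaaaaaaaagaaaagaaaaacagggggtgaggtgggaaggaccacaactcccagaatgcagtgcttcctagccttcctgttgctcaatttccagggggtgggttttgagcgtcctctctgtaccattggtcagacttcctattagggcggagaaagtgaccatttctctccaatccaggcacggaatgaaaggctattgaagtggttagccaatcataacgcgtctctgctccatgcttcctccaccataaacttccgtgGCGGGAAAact
Mcm5, chr8:75835887-75836166, plus strand: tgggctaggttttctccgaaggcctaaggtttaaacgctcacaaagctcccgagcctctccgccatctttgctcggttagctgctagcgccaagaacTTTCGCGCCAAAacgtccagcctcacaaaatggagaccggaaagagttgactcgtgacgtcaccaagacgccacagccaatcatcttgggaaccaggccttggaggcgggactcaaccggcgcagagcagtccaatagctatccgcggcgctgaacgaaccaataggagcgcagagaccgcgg
Uhrf1, chr17:56611063-56611342, plus strand: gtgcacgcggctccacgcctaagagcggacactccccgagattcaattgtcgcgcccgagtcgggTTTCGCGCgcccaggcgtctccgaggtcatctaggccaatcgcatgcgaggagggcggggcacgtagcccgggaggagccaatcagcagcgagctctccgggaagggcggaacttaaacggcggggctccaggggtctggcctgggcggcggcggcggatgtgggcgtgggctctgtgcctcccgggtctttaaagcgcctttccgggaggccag
Arrdc4, chr7:68398957-68399236, minus strand: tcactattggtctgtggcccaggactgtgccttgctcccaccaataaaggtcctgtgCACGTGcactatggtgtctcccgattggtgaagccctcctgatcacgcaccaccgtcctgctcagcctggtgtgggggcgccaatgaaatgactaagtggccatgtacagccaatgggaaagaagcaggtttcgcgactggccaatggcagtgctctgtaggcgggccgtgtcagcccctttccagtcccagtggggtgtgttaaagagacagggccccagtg
Dusp1, chr17:26727417-26727696, minus strand: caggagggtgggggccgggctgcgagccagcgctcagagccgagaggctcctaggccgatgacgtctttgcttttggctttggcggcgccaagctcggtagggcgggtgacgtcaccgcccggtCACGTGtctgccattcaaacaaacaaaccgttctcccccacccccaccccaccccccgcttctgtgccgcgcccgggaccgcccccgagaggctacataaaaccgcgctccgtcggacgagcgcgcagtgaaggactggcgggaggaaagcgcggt
Pfkfb3, chr2:11506872-11507151, minus strand: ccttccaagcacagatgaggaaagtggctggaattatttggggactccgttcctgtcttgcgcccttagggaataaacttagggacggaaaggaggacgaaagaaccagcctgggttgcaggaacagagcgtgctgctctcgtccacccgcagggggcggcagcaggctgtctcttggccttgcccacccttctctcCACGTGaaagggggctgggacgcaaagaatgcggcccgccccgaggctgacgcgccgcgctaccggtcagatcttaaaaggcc

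An E2F word was in the windows of 49 of 191 raised genes with a window (25.7%), 17 of 44 replication genes (38.6%) and 436 of 8965 genes tested (4.86%). Among lowered genes it was in 1 of 124 (0.806%). CACGTG was in 9 of the 124 lowered genes (7.26%), 30 of the 191 raised (15.7%) and 1071 of the 8965 (11.9%). It was in 3 of 17 glucose-responsive genes. These are matches of letters, without a test.

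GKRP-446P was also expressed without added GK, in cultures that are separate from those above but from the same mice. Against untreated hepatocytes, which received no vector, hP cultures had 238 genes raised (1.95%) and 62 lowered (0.509%). Of the 244 genes raised with GK, 154 were raised at endogenous GK too (63.1% of the 244, 64.7% of the 238), and of the 158 lowered, 37 were (23.4% of the 158, 59.7% of the 62). The sign was the same for 239 of the 244 and 149 of the 158, where 50.3% of all genes tested were above 0 and 49.7% below. The median log2 fold change at endogenous GK was 0.697 for the raised and -0.424 for the lowered genes.

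The replication genes had medians of 1.04 with and 1.08 without added GK, and 35 of 54 were raised at endogenous GK. Mcm4 went from 11.97, 8.85 and 13.1 CPM in untreated hepatocytes to 67.7, 48.1 and 64.0 CPM with hP. The levels with hP and with hP+GK overlapped. Glucose-responsive genes had a median of -0.28 at endogenous GK, with 4 of 23 lowered. Txnip was 16.6, 44.9 and 123 CPM untreated and 15.1, 17.3 and 22.1 CPM with hP (log2 fold change -1.44, adjusted p = 0.0075). Tkfc was 188, 182 and 204 CPM untreated and 145, 143 and 150 CPM with hP (-0.39, adjusted p = 0.18).

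**Figure D4:**
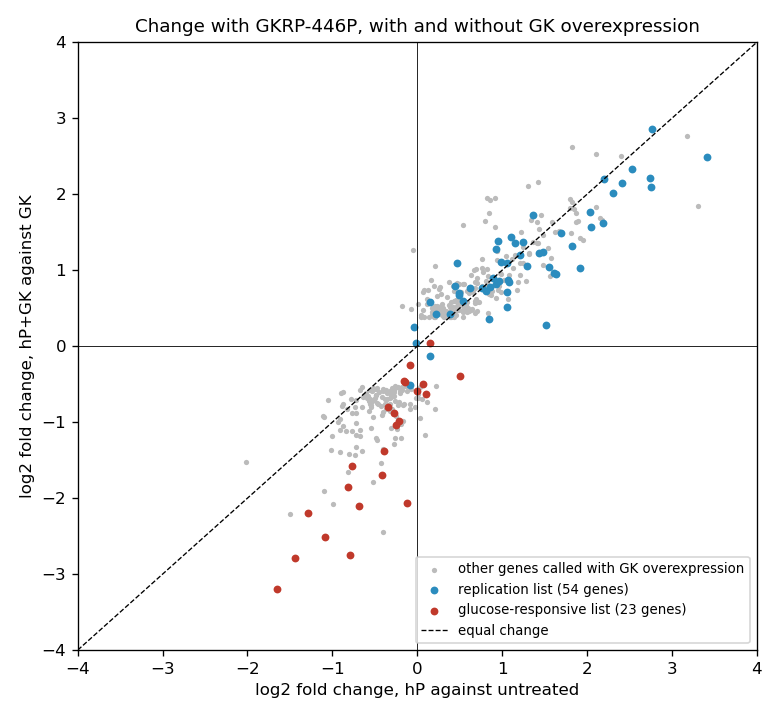
Log2 fold change of hP+GK against GK (vertical) and of hP against untreated (horizontal) for 400 of the 402 genes called with GK and for the 54 replication and 23 glucose-responsive genes. Replication genes lie around the dashed line of equal change (medians 1.04 and 1.08), and glucose-responsive genes below it (medians -1.03 and -0.28).

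The difference between these effects was tested as an interaction. Only 1 gene was called (0.00821%), Ftl2-ps, a ferritin light chain pseudogene at 618, 0 and 0 CPM with hP+GK and 364, 138 and 42.9 CPM in untreated hepatocytes, whose reads can be split with near-identical copies; its value is uncertain. At an unadjusted p under 0.05, 204 genes had a more positive and 300 a more negative effect with GK. Together these were 4.14% of all genes tested, no more than a threshold of 0.05 gives by chance. DESeq2 called 35. Among the genes next in p were Ddhd2, a phospholipase (log2 difference -0.81, SE 0.14), and Slc16a1, the monocarboxylate transporter MCT1 (-0.56, SE 0.10), each with an adjusted p of 0.051. For Tkfc the 95% interval of the difference was -1.41 to -0.57 (adjusted p = 0.15), and for Klf10 -2.08 to -0.75 (adjusted p = 0.34). All 23 glucose-responsive genes had a negative difference, with a median of -0.81, against -0.0048 over all genes. The median over the replication genes was -0.11.

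Other GKRP forms were compared with GKRP-446P in the presence of GK. In the 446L form leucine replaces the proline at residue 446. With hL+GK, 15 genes were higher (0.123%) and 1 lower (0.00821%) than with hP+GK. Of the 16, 8 had been lowered in hP+GK against GK, a comparison that shares the hP+GK samples: Vegfa, Dusp1, Pfkfb3, Bhlhe40, Adm, Tiparp, Egln3 and Depp1. Vegfa, the endothelial growth factor, was 73.9, 238 and 121 CPM with hP+GK, 145, 355 and 249 CPM with hL+GK and 132, 319 and 214 CPM with GK. It was higher with hL+GK in each mouse (log2 difference 0.87, SE 0.14, adjusted p = 0.0095). Depp1 had the largest difference (1.44), followed by the vasodilator peptide Adm (1.19), Rgs2 (1.07) and 2610005L07Rik (-1.03), a symbol that 2 genes share. Hmox1, heme oxygenase, was 152, 489 and 261 CPM with hP+GK and 300, 780 and 404 CPM with hL+GK. These calls were lost without mouse 1 or without mouse 3, and 4 genes were called without mouse 2.

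None of the 23 glucose-responsive genes was called between hL+GK and hP+GK, and 17 were higher with hL+GK, with a median difference of 0.24. Rgs16 differed by 1.35 (95% interval 0.53 to 2.17, adjusted p = 0.38), Txnip by 0.67 (0.07 to 1.28) and Pklr by 0.13 (-0.18 to 0.43). For the replication genes the median difference was -0.01. Mouse GKRP-446P differed from the human form in 1 gene (0.00821%), Gckr, which the mouse vector supplies; DESeq2 called 26. The median difference was 0.03 for the glucose-responsive and 0.22 for the replication genes, of which 51 of 54 were higher with mP+GK and 0 were called. For Txnip the interval was -0.81 to 0.42 and for Tkfc -0.22 to 0.38.

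**Figure D5:**
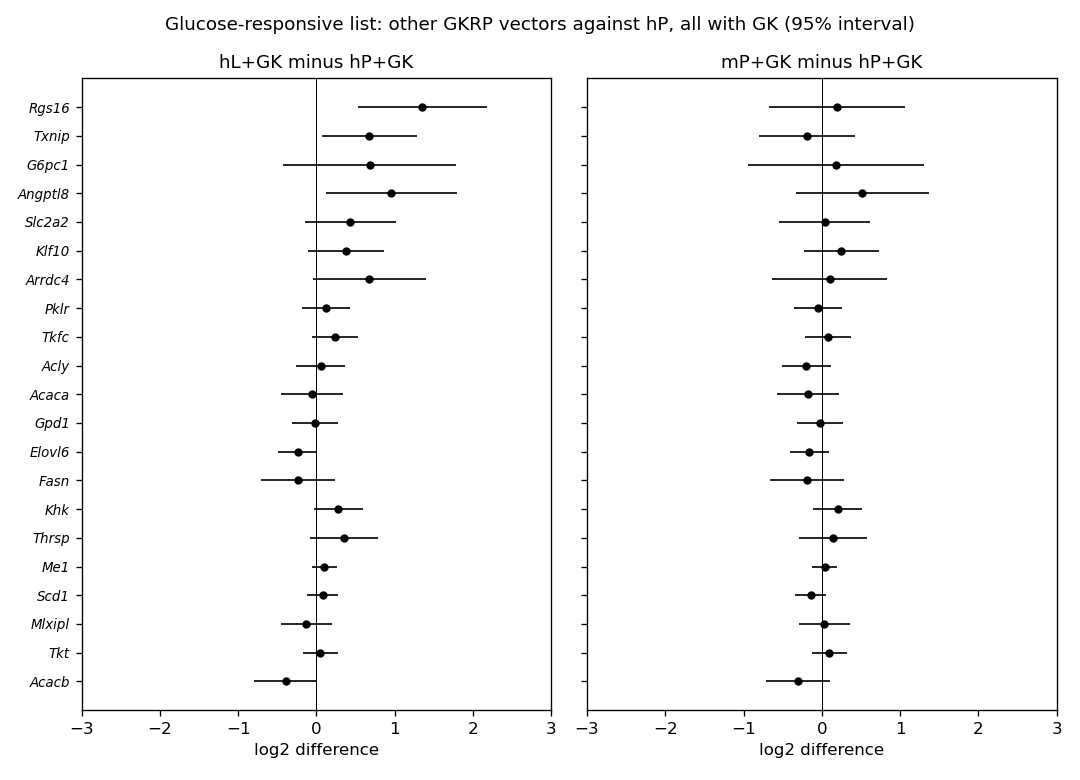
Log2 difference, with its 95% interval, of hL+GK (left) and mP+GK (right) from hP+GK for 21 of the 23 glucose-responsive genes, ordered by their log2 fold change in hP+GK against GK. Rgs16, at the top, has the largest difference with hL+GK (1.35) and 0.19 with mP+GK.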

How the data were processed

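RNA from 36 hepatocyte cultures was sequenced. The authors ran Salmon 1.4.0 (GRCm39 transcripts from Gencode) after FastQC and deposited, for each of 139225 transcripts, expected counts, TPM scaled within the library, and effective length. Here the expected counts were summed to 52230 genes through Ensembl identifiers (98.8% of transcripts matched Gencode M39) and rounded. The TPM deposited by the authors served only as weights for the length correction. Both cultures of a mouse in the same condition were summed; they differed beyond counting noise (chi-square divided by its degrees of freedom, 4.38 to 13.2 for GK).

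Libraries held 3924674 to 10046158 reads. edgeR 4.0.16 in R 4.3.3 was fitted to 30 samples with 10 conditions and the mouse as terms, TMM factors 0.901 to 1.093, and the filterByExpr filter, leaving 12176 genes. Standard errors are the log2 fold change divided by the square root of F. The labels name the animal of each culture, which pairs the samples; deviations of hP+GK and GK samples from their condition means correlated at 0.24, 0.39 and 0.016 within the 3 mice, and the biological coefficient of variation was 0.231 with the mouse and 0.323 without. DESeq2 1.42.0 was an alternative. On simulated data for hP+GK against GK (11911 genes), 72% of 200 genes changed by a fold of 2 were recovered and 1.37% of calls were false. The counts were drawn from the same kind of model that was then fitted. They held no library differences in transcript length and no changes that differ between mice. The false share therefore does not measure the error of the real calls.

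The members and gene lists were chosen with earlier results of these data known. Named genes were the 12 raised and 12 lowered most among calls in 3 of 3 mice at a mean of at least 2 CPM, up to 4 of smallest p per list, a fixed set that included Gckr, Tkfc, Pklr, Txnip, G6pc1, Rgs16, Klf10 and Fgf21, and up to 8 per comparison with other vectors; further members of the lists, and Pfkl, Fbp1, Pck1, Fasn, Scd1, Me1, Mlxipl, E2f1, Pcna, Rrm1 and Rrm2 among them, were named after their values were seen. Promoters were printed for at most 3 named genes per direction, those with the smallest p whose window held the word searched. A few genes that this rule names are not reported here; counts, medians and tests over all genes include them.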

Additional observations from a re-analysis of the deposited data

Results flagged for a closer look

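Among 39 genes checked over the 6 GK cultures, 3 had 1 culture far from the other 5. For independent values chance alone gives about 1 in 20, but each mouse gave 2 of these cultures, so that rate need not hold. Gckr was 1462 CPM in that culture, a GK culture of mouse 3, and Mcm4 was 22.3 CPM in the same culture, where the other 5 lay between 11.5 and 14.3 CPM. Fgf21 was 1.46 CPM there too, on few reads (13 over both GK cultures of mouse 3). All 3 genes thus stood apart in 1 culture, whose GK label is in doubt. Txnip, Rgs16 and Tkfc in that culture lay nearer to the other GK culture of mouse 3 than to the hP+GK culture of that mouse. The effect of hP differed with and without GK overexpression for Ftl2-ps, with a log2 difference of 24.18 in the interaction test; a fold against samples at 0 depends on the prior count and gives no size.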

How the results depend on the processing

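The counts of lowered and raised genes in hP+GK against GK were 158 and 244. They were 30 and 77 with no replicate block (without the mouse), 69 and 77 in a model of only the GK and hP+GK samples, 67 and 30 with all cultures of endogenous GK as 1 group, which pools cultures with and without GKRP vectors, and 7 and 9 with the transcript length offset, where the cause was not tested. In the model of only the GK and hP+GK samples the edgeR adjusted p was 0.00784 for Mcm4, 0.00855 for Pklr and 0.0278 for Rgs16. There 8 genes compared, Acly (0.0565) among them, lost their call. Leaving out 1 mouse gave 33 to 130 lowered and 65 to 165 raised. Without mouse 3 the counts were 33 and 65, and without mouse 2 84 and 112. The filter omitted gave 153 raised, and the adjusted p alone 257 lowered. A model of only these samples without the block, chosen after seeing the data, gave 0 and 0 in edgeR, with 372 and 502 at an unadjusted p under 0.05. Of the glucose-responsive genes 5 stayed lowered with the length offset and 22 of 23 kept a negative value; of the replication genes 5 were raised and 49 of 54 were positive, and 2 were raised with endogenous GK as 1 group.

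For the dependence on GK the count of 1 became 0 without the replicate block and with the length offset, 35 with DESeq2, 3 with no filter, 4 at 2 CPM and 6 with each culture as a sample, and 0 to 1 leaving out 1 mouse. Tkfc was called under 2 of 11 alternatives, with a difference of -1.64 to -0.75. For hL+GK against hP+GK the 16 became 0 without the block and with the length offset, 50 with DESeq2, 1 with each culture as a sample, and 0 to 4 leaving out 1 mouse. For mP+GK the 1 became 26 with DESeq2, and leaving out 1 mouse gave 1 each time. For hP against untreated the 300 became 92 without the block, 37 with the length offset, and 65 to 177 leaving out 1 mouse. The log2 fold change of Ftl2-ps in hP+GK against GK, 10.25, reversed to -1.62 without mouse 1. The fatty acid oxidation median, -0.041, was -0.10 without mouse 1 and reversed to 0.055 without mouse 3 and to 0.048 with the length offset. With RLE size factors 238 of the 244 raised and 158 of the 158 lowered genes kept their call, and without the GK culture with high Gckr 230 and 151 did. With the length offset 27 of the 45 genes and list medians compared, all 27 of them genes, lost their call.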

Other observations

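Genes outside the lists, chosen after their values were seen, included chaperones among those raised with hP+GK. Hspa8, the constitutive HSP70, rose by 0.54 on the log2 scale against GK, Hsph1 by 0.61, Dnajb1 by 0.54, Dnaja1 by 0.45 and Fkbp4 by 0.39. Klf15, a transcription factor that responds to glucocorticoids, was 8.89, 5.74 and 3.68 CPM with GK and 13.9, 13.7 and 13.8 CPM with hP+GK. Among those lowered were Ulk1, the kinase that starts autophagy, by 1.35, Glul, glutamine synthetase, by 1.21, and Pdhb, a pyruvate dehydrogenase subunit, by 0.83. Pik3r1, the regulatory subunit of PI3-kinase, was 60.5, 36.0 and 45.2 CPM with GK and 33.8, 19.7 and 28.5 CPM with hP+GK, and it was lowered at endogenous GK as well (log2 fold change -0.89, adjusted p = 0.00079 by edgeR). The glucagon receptor Gcgr fell by 0.52.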
